A study of Mus musculus with 16 samples.

Results

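The smooth muscle contractile genes of the mouse epididymis are described here through 10 genes, Acta2, Actg2, Myh11, Tagln, Cnn1, Des, Pdlim3, Synpo2, Smtn and Myocd, chosen by name as the contractile apparatus and its regulator. They are 10 of the 18193 genes that the array annotation pairs with a probe set of their own. A probe set is the group of short probes that reads 1 transcript, and 18 probe sets carried these symbols. Of these, 11 passed the filter on low values (at or above the array's median signal on at least 3 of the 15 epididymis arrays) and 7 did not. All 10 genes kept at least 1 probe set and so belong to the 12231 genes tested. The representative probe sets reached the median on between 7 and 15 arrays. Actg2, Myh11, Cnn1, Des and Synpo2, with 7 to 9 such arrays, passed mainly through their later stages.

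Whole epididymides of wild-type CD-1 males, an outbred mouse stock, were profiled on Affymetrix expression arrays with 3 arrays at each of 5 stages. The stages were gestational days 12, 14, 16 and 18 (gd12, gd14, gd16 and gd18, Theiler stages 20, 22, 24 and 26) and postnatal day 2 (pnd2, Theiler stage 27). No animal was treated or carried a transgene. The design text describes 1 animal per sample and a separate dam for each animal, whereas the labels of the gd12 and gd14 samples give pools of 3, so the number of animals behind an early array is not settled. One further array held a pool of 8 whole newborns (4 male and 4 female, postnatal day 0.5), and RNA of all 16 arrays went through 2 rounds of amplification.

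Smooth muscle shortens when myosin II filaments pull on actin filaments, after calcium and calmodulin have switched on myosin light chain kinase. Its genes are driven largely by serum response factor, which binds a DNA element called the CArG box, together with its coactivator myocardin. In the epididymis, a layer of smooth muscle forms around the Wolffian duct epithelium during fetal life, and in the adult its contractions move sperm along the duct. The arrays read the whole organ, so blood vessel muscle and the muscle of the duct are measured together, and more cells of a type cannot be told apart from more RNA per cell.

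The start-site windows of 4 of the genes are shown because their courses differ. Acta2 separated at every stage, Pdlim3 had the highest log2 change over fetal life, Cnn1 separated from gd12 last, and Smtn passed no test. Each window runs from 250 bases before to 50 bases after the annotated start, 5′ to 3′ on the gene's own strand, in RefSeq's GRCm38.p6 annotation. RefSeq windows were matched for 6 of the 10 genes, the others being Des and Synpo2. Actg2, Myh11, Tagln and Myocd are named only. Capitals mark matches to the CArG box, taken as a pair of C, 6 core bases and a pair of G, with at most 1 core base other than A or T.
Acta2 (chr19:34255324-34255623, minus strand): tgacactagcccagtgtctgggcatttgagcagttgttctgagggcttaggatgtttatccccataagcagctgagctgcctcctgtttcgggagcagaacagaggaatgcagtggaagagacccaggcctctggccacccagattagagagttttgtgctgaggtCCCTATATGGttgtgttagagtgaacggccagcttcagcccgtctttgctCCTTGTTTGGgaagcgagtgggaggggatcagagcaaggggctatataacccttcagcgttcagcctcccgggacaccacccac
Pdlim3 (chr8:45885237-45885536, plus strand): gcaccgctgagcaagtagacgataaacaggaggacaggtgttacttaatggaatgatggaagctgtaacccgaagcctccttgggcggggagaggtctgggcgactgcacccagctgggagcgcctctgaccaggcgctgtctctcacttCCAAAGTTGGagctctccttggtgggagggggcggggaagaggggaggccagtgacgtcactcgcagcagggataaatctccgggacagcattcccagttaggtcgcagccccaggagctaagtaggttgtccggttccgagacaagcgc
Cnn1 (chr9:22099003-22099302, plus strand): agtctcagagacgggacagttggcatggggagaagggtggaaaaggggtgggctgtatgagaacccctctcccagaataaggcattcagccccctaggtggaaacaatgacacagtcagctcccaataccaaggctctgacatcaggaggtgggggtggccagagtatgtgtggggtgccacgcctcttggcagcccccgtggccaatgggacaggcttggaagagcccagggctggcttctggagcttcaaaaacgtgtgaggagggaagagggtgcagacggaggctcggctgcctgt
Smtn (chr11:3539243-3539542, minus strand): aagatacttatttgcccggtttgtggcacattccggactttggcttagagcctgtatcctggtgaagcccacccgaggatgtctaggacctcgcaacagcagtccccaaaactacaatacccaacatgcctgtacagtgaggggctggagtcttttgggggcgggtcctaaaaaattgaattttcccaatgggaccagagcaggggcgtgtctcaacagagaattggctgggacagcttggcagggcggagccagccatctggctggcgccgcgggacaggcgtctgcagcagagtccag

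The Acta2 window held 2 such matches, CCCTATATGG beginning at position -84 from the start and CCTTGTTTGG at -34. The Pdlim3 window held 1, CCAAAGTTGG at -100. The windows of Cnn1, Smtn, Des and Synpo2 held no match on either strand. Of all 32851 windows of this length, 9.98% held a match of this kind and 1.63% held one with A or T at every core base, which none of the 6 windows did. The motif CATTCC, known as the MCAT element, was searched on both strands as well and lay in the windows of Acta2 (at -146), Pdlim3 (at -201 and -11) and Smtn (at -222), against 14.7% of all windows. TATAAA lay only in the Synpo2 window among the 6 (at -233), against 13.6% of all windows. None of these matches overlapped another. A match describes letters and not a bound site, and a window without one says nothing about the factor.

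**Figure D1:**
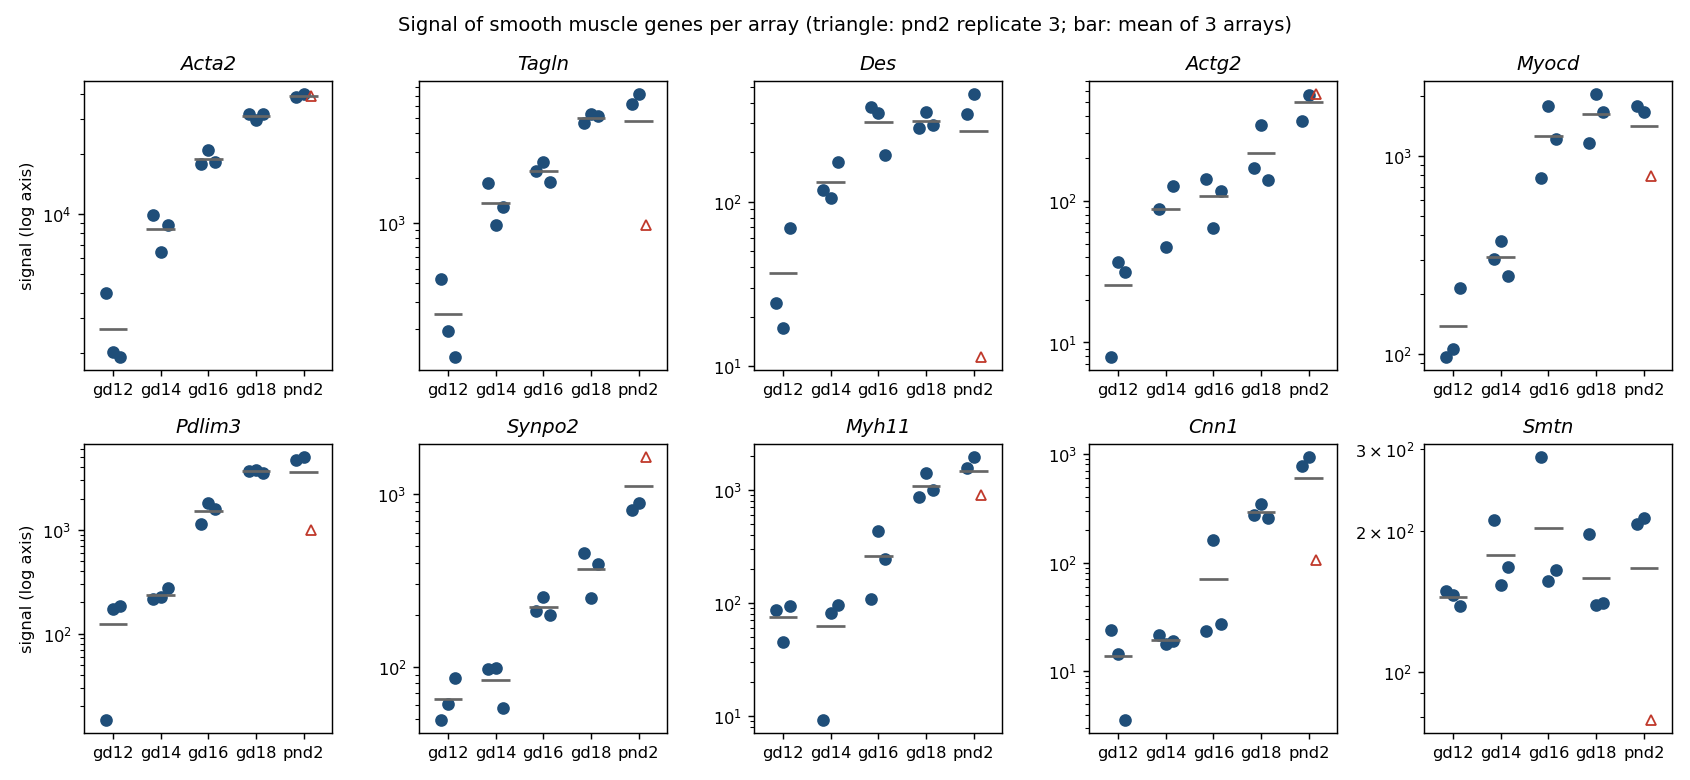
Signal of each gene's representative probe set (vertical log axis, arbitrary units) on the 15 epididymis arrays by stage; points are arrays, bars are means of 3 arrays, and the open triangle is pnd2 replicate 3. Acta2 lies at 38629 to 40144 at pnd2, against 1901 to 4009 at gd12, the gd14 arrays of Cnn1 stay within its gd12 range and those of Myh11 overlap it, and Smtn stays between 78.8 and 289.

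Acta2, the alpha actin of smooth muscle and the main actin of its thin filaments, gave 4009, 2019 and 1901 at gd12 and 9862, 6409 and 8849 at gd14. It gave 17872, 20908 and 18190 at gd16, 31781, 29772 and 32009 at gd18, and 38629, 40144 and 39464 at pnd2. No 2 stages overlapped: the highest array of each stage lay below the lowest of the next. Means were 2643 ± 1185 at gd12, 8373 ± 1775 at gd14, 18990 ± 1669 at gd16, 31187 ± 1231 at gd18 and 39413 ± 759 at pnd2 (SD, n = 3 each). On the log2(signal + 16) scale used for all differences here, Acta2 rose 12.5-fold at gd18 relative to gd12 (log2 3.64 ± 0.23 SE, adjusted p = 1.03e-07, limma over all 25960 kept probe sets with Benjamini-Hochberg adjustment). At gd14 it was already 3.30-fold above gd12 (1.72 ± 0.23, limma adjusted p = 0.000279). The probe set's name ends in _s, which marks probes that can also bind related transcripts, and its 2 other probe sets stayed between 2.39 and 143, too low to be tested.

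Actg2, the gamma actin of smooth muscle that is best known from visceral organs, was far dimmer on its probe set, which does not allow a comparison of level with Acta2. It gave 7.89, 36.9 and 31.5 at gd12 and 87.9, 47.4 and 127 at gd14. At gd16 it gave 144, 64.4 and 118, at gd18 171, 344 and 141, and at pnd2 366, 565 and 568. All gd14 arrays lay above all gd12 arrays, gd16 overlapped both gd14 and gd18, and all pnd2 arrays lay above every fetal array. Actg2 rose 5.60-fold at gd18 relative to gd12 (log2 2.49 ± 0.43, limma adjusted p = 0.00104). Between gd18 and pnd2 its log2 difference was 1.21 ± 0.43 (adjusted p = 0.168), and without pnd2 replicate 3 it was 1.10.

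Among the actin-binding proteins, Tagln (transgelin, or SM22 alpha, which coats actin filaments) gave 427, 193 and 129 at gd12 and 1846, 975 and 1275 at gd14. It gave 2220, 2551 and 1893 at gd16, 4634, 5309 and 5131 at gd18, and 6213, 7209 and 970 at pnd2. The 4 fetal stages did not overlap, while pnd2 replicate 3 lay just below the gd14 arrays. Tagln rose 21.2-fold at gd18 relative to gd12 (log2 4.40 ± 0.58, limma adjusted p = 0.000118), and 5.61-fold at gd14 (2.49 ± 0.58, adjusted p = 0.015). The gd14 call for Tagln held in 12 of the 15 fits that left out 1 array and was lost without gd12 replicate 14 (adjusted p = 0.0616), gd12 replicate 15 (0.0676) or gd14 replicate 10 (0.0721).

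Cnn1 (calponin, which binds actin and slows the actomyosin ATPase and is widely used as a marker of mature smooth muscle) started late. It gave 23.8, 14.5 and 3.58 at gd12, 21.6, 17.9 and 18.9 at gd14, and 23.7, 162 and 27.1 at gd16. At gd18 it gave 277, 345 and 257, and at pnd2 770, 940 and 105. The gd14 arrays lay within the gd12 range, gd16 touched it through replicate 7, and all gd18 arrays lay above the earlier stages. At pnd2, replicates 1 and 2 lay above gd18 and replicate 3 below it. Cnn1 rose 10.7-fold at gd18 relative to gd12 (log2 3.41 ± 0.69, limma adjusted p = 0.00332). Its gd12 signals lie near the constant of 16 added before the log.

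Smtn (smoothelin, an actin-binding protein of contractile smooth muscle) gave 149, 146 and 138 at gd12, 212, 153 and 168 at gd14, and 289, 157 and 166 at gd16. It gave 197, 139 and 140 at gd18 and 208, 213 and 78.8 at pnd2. Every stage overlapped every later one except that the 3 gd14 and the 3 gd16 arrays lay above the gd12 arrays. Its log2 difference at gd18 relative to gd12 was 0.11 ± 0.34, with a 95% interval of -0.61 to 0.83 (limma adjusted p = 0.883). The upper end of this interval lies below the log2 difference of each of the other 9 genes.

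Myh11, the smooth muscle myosin heavy chain, is the motor protein itself. It gave 85.6, 44.8 and 93.3 at gd12, 9.25, 81.3 and 95.7 at gd14, and 109, 431 and 244 at gd16. At gd18 it gave 871, 1395 and 1003, and at pnd2 1548, 1955 and 893. The gd12 and gd14 arrays overlapped, all gd16 arrays lay above both, all gd18 arrays lay above gd16, and pnd2 overlapped gd18 through replicate 3. Myh11 rose 12.4-fold at gd18 relative to gd12 (log2 3.63 ± 0.54, limma adjusted p = 0.000344), while its difference at gd14 relative to gd12 was -0.43 ± 0.54 (adjusted p = 0.721). That value was 0.25 without gd14 replicate 10, the array at 9.25. Its second probe set stayed between 2.45 and 106 and was not tested.

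Des (desmin, the intermediate filament that links dense bodies in muscle) gave 24.4, 17.1 and 69.5 at gd12 and 118, 106 and 174 at gd14. It gave 375, 347 and 193 at gd16, 282, 352 and 294 at gd18, and 342, 451 and 11.4 at pnd2. The gd14 arrays lay above gd12 and below gd16, gd18 lay within the gd16 range, and pnd2 replicate 3 lay below every array of the other stages. Des rose 6.68-fold at gd18 relative to gd12 (log2 2.74 ± 0.77, limma adjusted p = 0.0243), with an adjusted p of 1.39e-05 without pnd2 replicate 3. The call was lost without gd12 replicate 13 or 14 or any 1 of the 3 gd18 arrays (limma adjusted p between 0.0606 and 0.0953) and held in the other 10 of 15 fits that left out 1 array. Its other probe set stayed between 16.9 and 140.

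Pdlim3 (a PDZ and LIM domain protein that binds alpha-actinin) gave 14.8, 174 and 185 at gd12 and 215, 224 and 275 at gd14. It gave 1146, 1829 and 1588 at gd16, 3659, 3753 and 3569 at gd18, and 4770, 5056 and 1003 at pnd2. The 4 fetal stages did not overlap, and pnd2 replicate 3 lay below all gd16 arrays. Pdlim3 rose 34.9-fold at gd18 relative to gd12 (log2 5.12 ± 0.64, limma adjusted p = 7.41e-05). The size rests partly on gd12 replicate 13, at 14.8, and the log2 difference was 4.23 in the lowest of the fits that left out 1 array.

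Synpo2 (synaptopodin 2, or myopodin, an actin-bundling protein of muscle) gave 49.2, 61.0 and 85.5 at gd12, 96.5, 97.9 and 57.3 at gd14, and 211, 253 and 199 at gd16. At gd18 it gave 457, 251 and 396, and at pnd2 809, 887 and 1650. The gd12 and gd14 arrays overlapped, gd16 lay above both and touched gd18, and all pnd2 arrays lay above gd18. Synpo2 rose 4.68-fold at gd18 relative to gd12 (log2 2.23 ± 0.31, limma adjusted p = 0.000201). A second kept probe set of the gene stayed between 26.0 and 181 over the 15 arrays and differed by 0.22 ± 0.50 in the same comparison (adjusted p = 0.831), so its probe sets disagree. Its other 2 probe sets stayed between 17.8 and 190.

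Myocd (myocardin, the coactivator of serum response factor) gave 96.6, 106 and 215 at gd12, 303, 373 and 248 at gd14, and 770, 1785 and 1220 at gd16. It gave 1168, 2050 and 1658 at gd18 and 1790, 1674 and 794 at pnd2. The gd14 arrays lay between gd12 and gd16 with no overlap, and gd16, gd18 and pnd2 shared a range. Myocd rose 10.9-fold at gd18 relative to gd12 (log2 3.44 ± 0.38, limma adjusted p = 2.45e-05). Its second probe set stayed between 6.79 and 47.8.

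Over fetal life, gd18 relative to gd12, 9 of the 10 genes rose, 0 fell and Smtn did not pass the test, where 9.45% of all kept probe sets were called higher and 7.1% lower. Shares here are over probe sets, whereas each gene was counted by 1 probe set. With 1 probe set per gene, 2804 of 12231 genes were called in either direction, against 4294 of 25960 probe sets. Without pnd2 replicate 3 the same 9 rose, where 17.9% of probe sets were called higher and 15.4% lower. Where gd12 signals are low, the size depends on the constant of 16, while each of these 9 calls held with constants of 1 and 64. With 1 and with 64 the log2 difference was 3.19 and 1.61 for Actg2, 4.59 and 2.19 for Cnn1, 3.28 and 1.92 for Des, and 5.52 and 4.48 for Pdlim3. The median log2 difference was 3.43 over the 10 genes and 0.01 over all genes tested. At pnd2 relative to gd12, 8 of the 10 rose, against 10.3% of probe sets called higher, and Des (adjusted p = 0.115) and Smtn did not pass. Without pnd2 replicate 3, Des passed too, making 9, where 14.4% of probe sets were called higher. For any change over the 5 stages, the F test called 8 of the 10 genes, against 21% of probe sets, and 9 without that array, against 38.7%.

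The intervals show where the rise was measured. At gd14 relative to gd12, Acta2 and Tagln rose, 2 of the 10 genes, against 5.09% of probe sets called higher. The differences for the genes that did not pass were 1.59 ± 0.77 for Des, 1.32 ± 0.43 for Actg2, 1.26 ± 0.64 for Pdlim3 and 1.12 ± 0.38 for Myocd. The values were 0.30 for Cnn1, 0.29 for Synpo2 and 0.26 for Smtn. The array pnd2 replicate 3 belongs to neither stage but enters the shared estimate of the spread. Without it, Des (adjusted p = 0.00278), Actg2 (0.0341) and Myocd (0.0133) passed as well in limma, making 5, where 13.7% of probe sets were called higher.

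At gd16 relative to gd14, 0 of the 10 genes passed in limma, against 0.0308% of probe sets called higher, and 5 had an unadjusted p under 0.05. Pdlim3 had the highest difference (2.58 ± 0.64, adjusted p = 0.263), followed by Myocd (1.91 ± 0.38, adjusted p = 0.105), Myh11 (1.91 ± 0.54, adjusted p = 0.396), Synpo2 (1.27 ± 0.31, adjusted p = 0.255) and Acta2 (1.20 ± 0.23, adjusted p = 0.0837). Without pnd2 replicate 3, Pdlim3 (0.0178), Myocd (0.00837), Synpo2 (0.0336) and Acta2 (0.0144) passed, making 4, where 0.466% of probe sets were called higher. Acta2 also passed without gd12 replicate 13 (0.00514). With all 15 arrays, Acta2 passed under quantile normalization (0.0457), and 5 genes passed under array quality weights, Acta2, Myocd, Pdlim3, Synpo2 and Myh11. The calls of this interval thus change with the processing and with the arrays used.

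At gd18 relative to gd16, 0 of the 10 genes passed in limma, against 0.0963% of probe sets called higher, and 3 had an unadjusted p under 0.05. Cnn1 (2.19 ± 0.69, adjusted p = 0.473) and Myh11 (2.15 ± 0.54, adjusted p = 0.225) had the highest differences. Cnn1 passed without pnd2 replicate 3 (adjusted p = 0.0424), where 0.682% of probe sets were called higher, and Myh11 was at 0.0501. Des differed by 0.07 and Smtn by -0.30.

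Around birth, pnd2 relative to gd18, 1 of the 10 genes rose, Synpo2, against 0.169% of probe sets called higher. Its level was 2.88-fold higher at pnd2 (log2 1.52 ± 0.31, limma adjusted p = 0.0459), and the call held in the 3 fits that left out 1 pnd2 array. It was lost in the other 12 fits that left out 1 array, at adjusted p values of 0.0519 to 0.186. The second kept probe set of Synpo2 differed by 0.795 ± 0.50 and did not pass (limma adjusted p = 0.351). Its remaining probe sets, which failed the filter on low values, went the other way with overlapping arrays. Their means were 80.7 at pnd2 against 154 at gd18, and 25.35 against 46.4. The values of the other genes were 1.21 for Actg2, 0.55 for Cnn1, 0.38 for Myh11, 0.34 for Acta2 and -0.03 for Smtn. They were -0.24 for Myocd, -0.34 for Pdlim3, -0.51 for Tagln and -0.96 for Des. Without pnd2 replicate 3 all 10 differences were positive, with 1.50 for Cnn1, 0.42 for Pdlim3, 0.41 for Tagln, 0.33 for Des and 0.13 for Myocd, and Synpo2 alone passed (1.21 ± 0.29, adjusted p = 0.0487), where 0.555% of probe sets were called higher.

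The order of onset is a description, since it was named when the genes were chosen. The first stage at which all 3 arrays lay above all 3 gd12 arrays was gd14 for 7 genes (Acta2, Actg2, Tagln, Des, Pdlim3, Myocd and Smtn), gd16 for 2 (Myh11 and Synpo2) and gd18 for 1 (Cnn1). Smtn is in this count by the rule only and shows no onset, since its gd18 and pnd2 arrays overlapped gd12 again. Of all kept probe sets, 21.6% separated from gd12 in this way at gd14, 23.3% at gd16 and 22.6% at gd18. By gd14, 58.1% of the rise between gd12 and gd18 on the log2 scale had been reached for Des (48.6% to 71.9% over the 3 arrays), 56.5% for Tagln (46.8% to 67.4%) and 53.3% for Actg2 (27.9% to 75.3%). The share was 47.3% for Acta2 (37.4% to 54.4%), 32.6% for Myocd (24.5% to 40.7%) and 24.6% for Pdlim3 (22.1% to 28.6%). All these ranges run over the gd14 arrays and treat the gd12 and gd18 means as fixed. The Pdlim3 share depends on gd12 replicate 13, being 0.37 of 4.23 on the log2 scale without that array. The Actg2 share depends on the constant added before the log, being 1.88 of 3.19 on the log2 scale with a constant of 1 and 0.74 of 1.61 with 64. The share was 13.2% for Synpo2, 8.87% for Cnn1 (6.998% to 11.4%) and -12.0% for Myh11 (-49.5% to 9.60%).

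The gd14 arrays thus placed the actins, Tagln and Des ahead of Myh11 and Cnn1 with no overlap between the arrays of the first 4 and those of the last pair. Neighbours in the order did overlap: Des, Tagln, Actg2 and Acta2 could not be ranked among themselves, nor could Synpo2, Cnn1 and Myh11. Myocd and Pdlim3 lay between, overlapping each other and their neighbours on either side. The place of Pdlim3 rests on gd12 replicate 13, without which its gd14 minus gd12 difference was 0.37. By gd16 the share was 97.6% for Des, 88.1% for Myocd, 80.3% for Acta2, 74.9% for Pdlim3, 73.2% for Tagln, 70.2% for Synpo2 and 64.9% for Actg2. It was 40.7% for Myh11 (14.0% to 64.8%) and 35.9% for Cnn1 (13.6% to 76.9%). The interval with the largest part of the fetal rise was gd12 to gd14 for Acta2, Actg2, Tagln and Des, gd14 to gd16 for Pdlim3, Synpo2 and Myocd, and gd16 to gd18 for Myh11 and Cnn1.

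**Figure D2:**
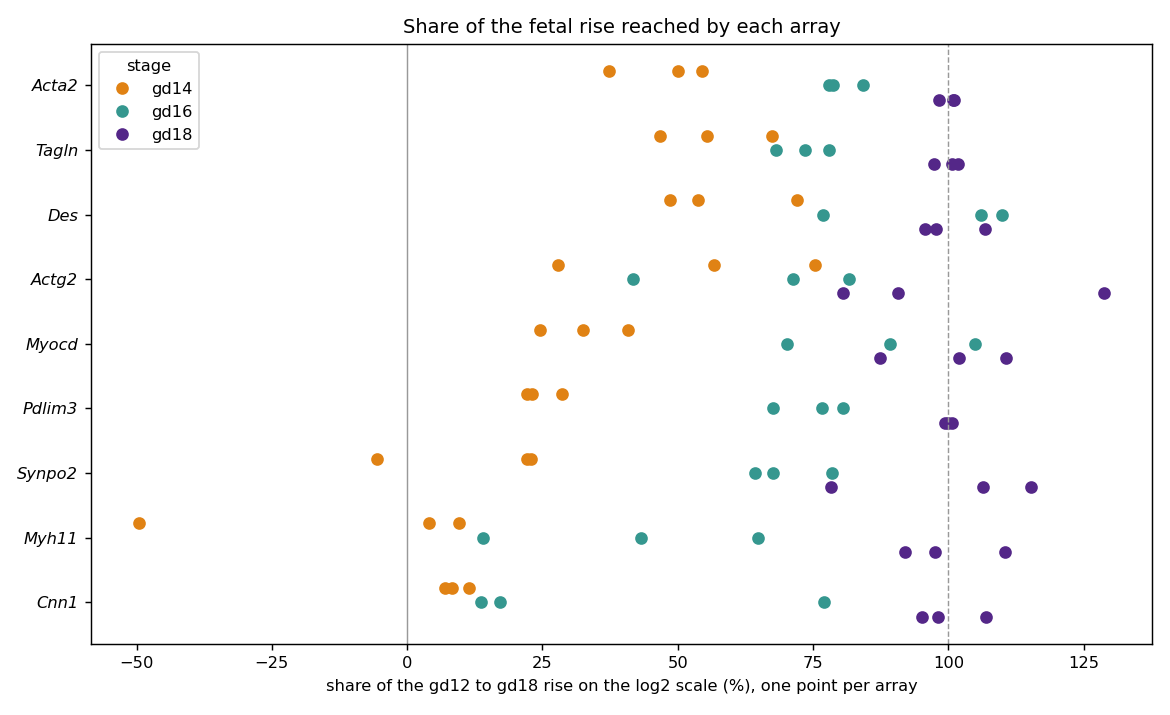
Share of each gene's log2 rise between gd12 and gd18 (horizontal axis, percent) reached by each gd14, gd16 and gd18 array; every point is 1 array, 0 is the gd12 mean and 100 the gd18 mean, and Smtn is left out because it did not rise. The gd14 points of Acta2, Tagln, Des and Actg2 lie at 27.9 to 75.3%, those of Myh11 and Cnn1 at -49.5 to 11.4%.

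Single arrays were the highest of their stage for several of the genes at once. At gd16, replicate 8 was the highest of its stage for 7 of the 10 genes, among them Cnn1 (162 against 23.7 and 27.1) and Myh11 (431 against 109 and 244). At gd18, replicate 5 was the highest for 7, and at pnd2 replicate 2 was the highest for 7. The first 2 of these arrays were also the lowest of their stage for 2 and 3 genes, and pnd2 replicate 3 was the lowest for 7. The same ranks were not taken over all probe sets. Replicates of a stage carry no finer age in the labels, so an age difference within a stage was not tested.

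RNA quality set pnd2 replicate 3 apart. The ratio of the 3′ to the 5′ control probe sets was 63.2 for Gapdh and 80.7 for Actb on that array, against 4.33 to 7.18 and 2.40 to 4.14 on the other 14 epididymis arrays. Its median signal was 81.3, against 110 to 133. Relative to the mean of pnd2 replicates 1 and 2, its signal was lower by 14.9-fold for Des, 7.16-fold for Cnn1, 6.80-fold for Tagln and 4.83-fold for Pdlim3. It was lower by 2.39-fold for Smtn, 2.16-fold for Myocd and 1.93-fold for Myh11. The log2 difference was 0.00 for Acta2, and Actg2 (0.31) and Synpo2 (0.95) were higher there, so Synpo2's highest pnd2 value of 1650 comes from this array.

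**Figure D3:**
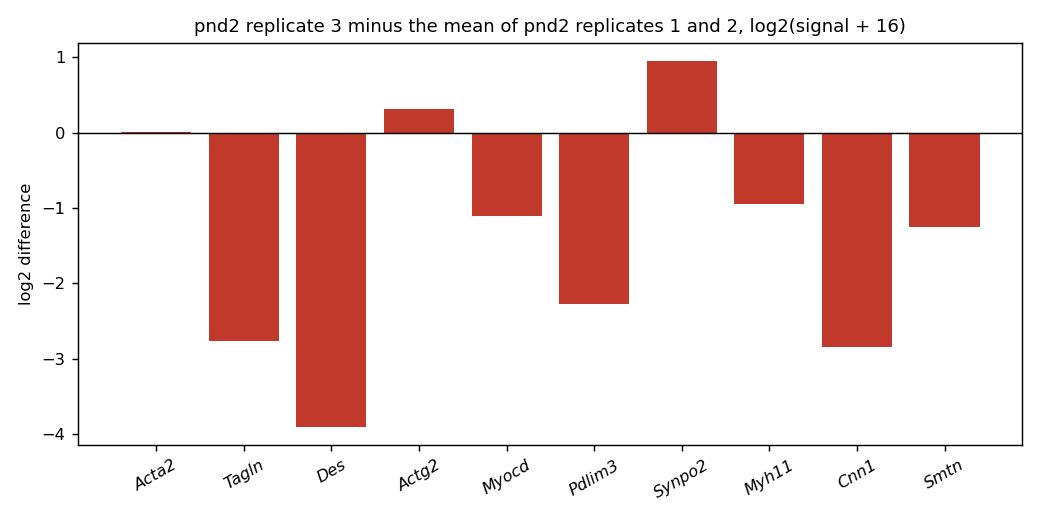
Log2(signal + 16) of pnd2 replicate 3 minus the mean of pnd2 replicates 1 and 2 (vertical axis), 1 bar per gene. Bars of 7 genes lie below 0, down to -3.90 for Des, Acta2 is at 0.00, and Actg2 and Synpo2 lie above 0.

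Striated muscle genes set pnd2 replicate 2 apart. The summed signal of a list of 16 skeletal muscle genes, 6 of which passed the filter on low values, was 12847 on that array, against 493 to 1193 on the other 14 epididymis arrays. It carried Acta1 (skeletal alpha actin) at 1991, where pnd2 replicates 1 and 3 gave 34.2 and 4.49, and Ttn (titin) at 1537 against 10.6 and 5.48. The cardiac list of 11 genes, 7 of which passed the filter, summed to 7880 there, with Actc1 at 4515, and to 749 to 2035 on the other 14 arrays. Within that range the gd12 arrays were highest, at 1743 to 2035, against 749 to 1270 at gd14 to gd18. At gd18 relative to gd12, 2 of the 7 tested cardiac genes were called lower, against 7.1% of probe sets, and 0 higher. They were Myl7 (log2 -3.68) and Tnni1 (-2.72). No defining marker of striated muscle was at 0 on any array, but Acta1 stayed at 4.49 to 163 on the epididymis arrays other than pnd2 replicate 2. Desmin and Pdlim3 are made in striated muscle as well as in smooth muscle. Without pnd2 replicates 2 and 3 together, the pnd2 minus gd18 difference was 0.14 for Des, 0.38 for Pdlim3 and 1.14 for Synpo2 (limma adjusted p = 0.224). The pnd2 stage is then 1 array, assumed to vary like the other stages. Without replicate 2 alone, Synpo2 differed by 1.65 and passed (adjusted p = 0.0379).

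Summed markers of other cell types, those of the testis among them, also moved with stage. Sums were taken over all listed genes of a type, whether or not they passed the filter on low values, so the brightest genes weigh most. Summed pericyte markers (9 genes, 6 of which passed, some of them shared with smooth muscle) were at 3631 to 5378 at gd12, 7279 to 8404 at gd14, 7108 to 10110 at gd16, 9238 to 11120 at gd18 and 6134 to 10150 at pnd2. Endothelial markers (9 genes, 8 of which passed) were at 4292 to 5684, 5819 to 6534, 6233 to 7393, 5470 to 6583 and 2583 to 4343 over the same stages. Mesothelial markers (5 genes, all of which passed) were at 4320 to 5789 at gd18, against 1459 to 1786 at gd12. In that comparison 2 of 6 tested pericyte genes (Kcnj8 and Abcc9), 2 of 8 endothelial genes (Flt1 and Eng) and 4 of 5 mesothelial genes were called higher. Among these 3 lists 0 were called lower, against 9.45% of all probe sets called higher and 7.1% lower. Without pnd2 replicate 3 the counts called higher were 5, 2 and 4, against 17.9%. Markers of the testis's supporting cells (7 genes, 6 of which passed) were at 1243 to 1730 at gd18, against 5853 to 8838 at gd12. All 6 that were tested fell, against 7.1% of all probe sets called lower, led by Dmrt1 and Dhh with log2 differences of -4.54 and -4.41. On the gd12 arrays, the baseline of the fetal folds, Dhh gave 933, 3161 and 3129, against 176, 220 and 187 at gd14. The part that any of these cell types plays in the rise of the contractile genes was not tested. As a check of the tissue label, 2 of the 6 tested duct list genes rose at gd18 relative to gd12, against 9.45% of all probe sets. They were Adgrg2, a receptor of the duct epithelium (57.4-fold), and Gata3 (3.32-fold). The log2 differences of the other 4 were 2.15 for Cdh16 (limma adjusted p = 0.0555), 0.42 for Lhx1, 0.36 for Pax8 and -0.13 for Emx2. Lcn8, a secreted protein of the mature duct, stayed between 17.5 and 92.7 and was not tested.

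Markers of interstitial steroid-making cells were high on 2 arrays, with summed signals of 2044 on gd14 replicate 10 and 3869 on gd16 replicate 9, against 106 to 713 on the other 13 epididymis arrays. Without these 2 arrays and pnd2 replicate 3, the same 9 genes rose at gd18 relative to gd12, where 16.7% of probe sets were called higher. At gd14 relative to gd12, 4 rose (Acta2, Tagln, Myocd and Des), where 9.68% were called higher. In limma, 0 passed at gd16 relative to gd14 (8 at an unadjusted p under 0.05), where 0.0963% of probe sets were called higher, and 0 passed at gd18 relative to gd16 (5 unadjusted), where 0.131% were.

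The rest of the contractile machinery was described with lists of related genes. Of the other thin filament genes, 3 of 13 rose at gd18 relative to gd12 and 0 fell: Tpm2 (beta tropomyosin, 5.91-fold), Hspb6 (a small heat shock protein of muscle, 2.67-fold) and Cnn2 (calponin 2, 2.29-fold). Over all kept probe sets, 9.45% were called higher and 7.1% lower in this comparison. Without pnd2 replicate 3, 6 of 13 rose, where 17.9% of all probe sets were called higher. The list's median log2 difference was 0.56. The non-muscle actins and myosins, found in nearly every cell, had 0 of 7 called in either direction in this comparison and a median of 0.13.

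Of the myosin light chain genes and those that control them, 7 of 10 rose and 0 fell, against 9.45% and 7.1% of all probe sets, with a median of 1.19. Mylk, the kinase that starts contraction, had the highest difference (5.08-fold, log2 2.35 ± 0.14, limma adjusted p = 8.88e-08). Myl9, the regulatory light chain, was 3.98-fold higher, Ppp1r12b, a targeting subunit of the light chain phosphatase, 3.09-fold, and Prkg1, the cGMP-dependent kinase of relaxation, 2.93-fold. Enzymes of both switching on and switching off were thus among the genes called.

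Adhesion and filament genes had 6 of 14 higher and 0 lower, against 9.45% and 7.1% of all probe sets. With pnd2 replicate 3 left out, 9 were higher and 1 lower, against 17.9% and 15.4%. Pgm5 (aciculin, an adhesion protein) was 10.9-fold higher, Cav1 (caveolin) 6.53-fold, Nexn (nexilin) 4.17-fold and Parva (parvin alpha) 2.86-fold. Of calcium handling and channel genes, 5 of 16 rose and 0 fell, against the same 9.45% and 7.1%, led by Abcc9 and Kcnj8, the 2 subunits of the vascular ATP-sensitive potassium channel (log2 3.53 ± 0.56 and 3.46 ± 0.50), which are also used as pericyte markers. Ano1, a calcium-activated chloride channel, was 4.03-fold higher and Cacna1c, the pore of the L-type calcium channel, 2.34-fold.

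Receptors and ligands that control contraction had 8 of 9 detected members higher at gd18 than at gd12 and 0 lower, against 9.45% and 7.1% of all probe sets, with a median of 1.82. Ptger3, a prostaglandin E receptor, was 9.07-fold higher, Agtr2 and Agtr1a, the angiotensin receptors, 8.36-fold and 5.20-fold, and Ptgfr, the prostaglandin F receptor, 3.89-fold. The same 8 genes were called at gd14 relative to gd12, where 5.09% of probe sets and 2 of the 10 contractile genes were called higher. Another 6 genes of this list did not pass the filter on low values. Ptger3, Ptgfr and Agtr1a had gd12 means of 27.2, 27.0 and 91.7, where array medians were 110 or more. A gene that low at gd12 passes the filter mainly by being higher later, so the count of 8 is partly set by the filter.

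Regulators of the smooth muscle programme other than Myocd had 6 of 26 higher and 1 lower at gd18 than at gd12, against 9.45% and 7.1% of all probe sets. With pnd2 replicate 3 left out, 13 were higher and 2 lower, against 17.9% and 15.4%. Prrx1, a mesenchymal homeobox factor, was 3.91-fold higher, Tgfbr2, a receptor of TGF-beta, 2.69-fold, Tgfb2, one of its ligands, 2.57-fold, and Klf4, which in vascular muscle represses contractile genes, 1.94-fold. Gata4 fell by 2.83 on the log2 scale and is also one of the testis supporting cell markers.

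**Figure D4:**
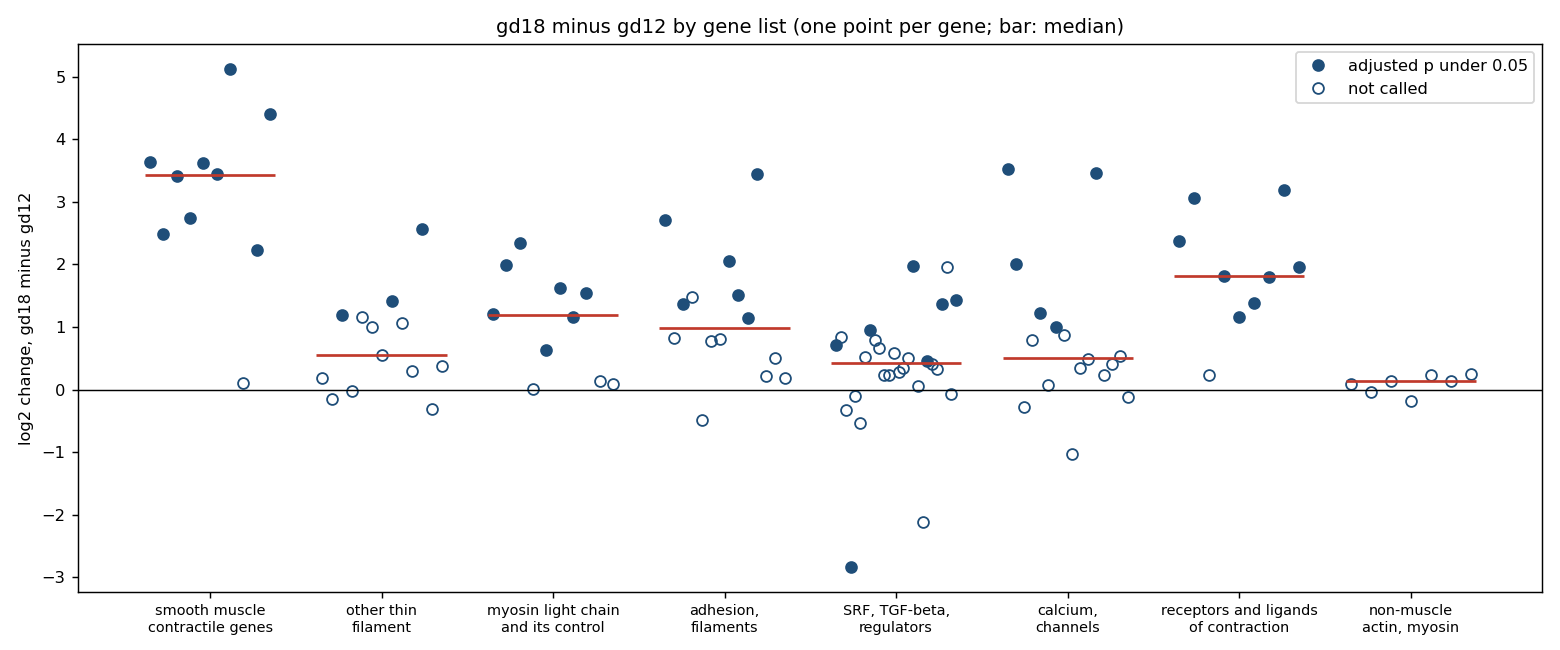
Log2 difference, gd18 minus gd12 (vertical axis), of each detected gene in 8 lists, the contractile genes at the left; filled points have a limma adjusted p under 0.05, open points do not, and bars are list medians. The contractile genes have a median of 3.43, receptors and ligands 1.82, and the non-muscle actins and myosins 0.13.

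Among the genes ranked, those whose course over the 15 arrays was most like that of Acta2 were Lama2 (a laminin chain of muscle basement membrane, Pearson r = 0.992), Fez1 (0.985), Thbs2 (thrombospondin 2, 0.984), Aspn (asporin, 0.983), Col5a2 (a collagen V chain, 0.981), Il6st (0.977), Lmna (0.976) and Dpysl3 (0.975). Within the contractile genes, Tagln was at 0.91 (0.988 without pnd2 replicate 3), Myocd at 0.90 and Smtn at 0.11. Those most like Myh11 were Tmem200c (0.938), Maob (0.927), Lcn2 (0.925), Irx1 (0.912), Tmed6 (0.907), B4galnt2 (0.904), Rasd2 (0.904) and Jazf1 (0.903), and Cnn1 was at 0.91. Acta2 and Myh11 were at 0.805 with each other. Myh11 was at 0.843 with Synpo2, 0.842 with Pdlim3, 0.828 with Myocd, 0.754 with Actg2, 0.699 with Tagln, 0.48 with Des and -0.141 with Smtn. The ranking left out the contractile genes and symbols taken as clone, model or accession names. Any symbol of C, D or E followed by a digit was passed over with these, so closer genes may be missing. The 15 arrays share their stages, so these values describe likeness of course over 5 stages and carry no test.

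Set beside the pool of whole newborns, a single array with no replicate, the epididymis was not higher in every contractile gene. All 3 pnd2 arrays lay above the pool for Acta2 (pool 20903), Synpo2 (633) and Myocd, whose lowest pnd2 array was 4.75 times the pool's 167. For Myh11 the lowest pnd2 array, at 893, was level with the pool's 891. All 3 pnd2 arrays lay below the pool for Actg2 (pool 3008, 5.29 times the highest pnd2 array), Des (2022, 4.48 times) and Smtn (454, 2.13 times). Tagln (2654), Cnn1 (453) and Pdlim3 (3895) lay above the pool on pnd2 replicates 1 and 2 and below it on replicate 3. Synpo2 lay above the pool on its representative probe set only. On its other 3 probe sets all 3 pnd2 arrays lay below the pool, which gave 2347, 243 and 144. The first of these, the second kept probe set, was at 26.0 to 181 in the epididymis, so it can report a high level. The pool holds skeletal muscle, heart and gut, which make Actg2 or Des, and its skeletal list summed to 225186.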

How the data were processed

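The deposited table holds 1 intensity (signal, linear scale) per probe set and array. Per the submitters' processing notes these values were made in GCOS, whose version was not given in the sources used here; nor was the signal algorithm. Outside the highest and lowest 2% of probe sets, each array's signals averaged 499.92 to 499.98, as after scaling by 1 factor per array. Control probe sets (64) were left out. Signals were taken as log2(signal + 16), and limma 3.58.1 in R 4.3.3 fitted 1 mean per stage to the 15 epididymis arrays with an intensity trend, on the 25960 kept probe sets. Benjamini-Hochberg adjustment ran over all of them within each comparison, and a gene was called at an adjusted p under 0.05. The fit was tested on simulated data. Folds are antilogs of these log2 differences. Each gene is represented by its brightest kept probe set. Genes and lists were chosen with earlier results of these data known. Named are all 10 contractile genes and the 8 ranked genes most like Acta2 or Myh11. From each list, genes were to be named from up to 4 called genes with the largest rise and 2 with the largest fall. Not every gene under this rule is given: Tnni2, Stmn2, Myl12b, Lrrn4 and the mesothelial genes met it without being described. The nerve list is not described either. The duct markers Cdh16, Lhx1, Pax8, Emx2 and Lcn8 and the striated muscle genes of pnd2 replicate 2 were named after their values were seen. The number of arrays limits the precision. Alternatives tried were array quality weights, no filter, added constants of 1 and 64, centring on medians, quantile normalization, other probe set choices and leaving out arrays; leaving out pnd2 replicates 2 and 3 together was added after seeing the data.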

Additional observations from a re-analysis of the deposited data

How the results depend on the processing

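The fetal rise kept its direction and its call for 9 genes under every alternative except that Des lost its call in 5 of the 15 fits that left out 1 array, so that 8 to 9 genes were called at gd18 relative to gd12. The counts were also 8 to 9 at pnd2 relative to gd12 and in the F test. At gd14 relative to gd12, 1 to 5 genes were called over the fits that left out 1 array, 5 with array quality weights, 4 without the 3 arrays in doubt (gd14 replicate 10, gd16 replicate 9, pnd2 replicate 3) and 5 without pnd2 replicates 2 and 3. At gd16 relative to gd14 the range was 0 to 4, with 5 under weights, 1 under quantile normalization and 3 without pnd2 replicates 2 and 3. At gd18 relative to gd16 it was 0 to 1, with 4 under weights. At pnd2 relative to gd18 it was 0 to 1, and 0 with median centring, a constant of 1, no filter, without the 3 arrays in doubt and without pnd2 replicates 2 and 3. The onset counts over fits that left out 1 array, with Smtn counted, were 7 to 8 at gd14, 1 to 3 at gd16 and 0 to 1 at gd18. Quantile normalization gave 0 at gd18.

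Over all probe sets, calls without pnd2 replicate 3 against the full set numbered 6191 and 2265 (gd14 minus gd12), 190 and 16 (gd16 minus gd14), 262 and 37 (gd18 minus gd16), 454 and 145 (pnd2 minus gd18), 8641 and 4294 (gd18 minus gd12), 7295 and 5478 (pnd2 minus gd12) and 10038 and 5442 (F test). Over every fit that left out 1 array they ran from 1313 to 6191, 6 to 190, 7 to 262, 3 to 820, 2915 to 8641, 3824 to 7295 and 3752 to 10038 in the same order.

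Signs turned as follows, none of them in a called difference. In pnd2 minus gd18, array quality weights gave 0.34 for Tagln, 0.21 for Des, 0.37 for Pdlim3, 0.36 for Smtn and 0.10 for Myocd. Without the 3 arrays in doubt the values were 0.41, 0.33, 0.42, 0.39 and 0.13 in that order, and without pnd2 replicates 2 and 3 they were 0.31, 0.14, 0.38, 0.37 and 0.17. Smtn was at 0.21 under quantile normalization and 0.19 under median centring. Over the fits that left out 1 array, the ranges were -1.02 to 0.41 for Tagln, -1.71 to 0.33 for Des, -0.73 to 0.42 for Pdlim3, -0.25 to 0.39 for Smtn and -0.46 to 0.13 for Myocd, with the highest value in each case without pnd2 replicate 3. The same ranges were -0.82 to 0.25 for Myh11 in gd14 minus gd12 (0.25 also without the 3 arrays in doubt), and -0.026 to 0.58 for Actg2 and -0.12 to 0.29 for Smtn in gd16 minus gd14. They were -0.22 to 0.23 for Des in gd18 minus gd16 (-0.22 also without the 3 arrays in doubt), -0.044 to 0.19 for Smtn in gd18 minus gd12, and -0.14 to 0.50 for Smtn in pnd2 minus gd12. The cause was not tested. No paired analysis was possible because the array numbers run on from stage to stage and no 2 stages share any.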
